A study of Mus musculus with 6 samples.

Results

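Regulatory T cells (Tregs) labelled Bcl11b knockout (KO) were compared with Tregs labelled wild type (WT), both from mice at steady state, in 4 of the 6 libraries of the series. Members were the libraries titled WT 1 and 2 and KO 1 and 2. The remaining 2 libraries, KO Tregs from mice with EAE, were not part of the contrast. In the count-table test they entered the gene filter, the scaling and the estimate of the spread between libraries. Per the labels, the cells came from spleen and peripheral lymph nodes by sorting, and total RNA was sequenced. The strain label of both KO libraries is Bcl11bF/WT Foxp3YFP-Cre +/-, and that of both WT libraries is Bcl11bF/F. Read as written, the KO label names a floxed and a WT allele with a Cre that is fused to YFP and driven by the Foxp3 gene, and the WT label names floxed alleles and no Cre, whereas the genotype label says KO and WT. The libraries are called KO and WT here after the genotype label. No age or sex is given in the labels, and nothing says that replicates came from separate animals, so all p-values refer to the spread between these libraries alone, which may be technical. The authors deposited 2 tables that hold these 4 library names, a table of read counts and a table of size-factor-normalized values, and the comparison was made separately in each.

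Tregs are CD4+ T cells that restrain other lymphocytes, and the transcription factor Foxp3 maintains their identity. They depend on interleukin-2, which they take up through a receptor that holds Il2ra (CD25) and which signals through STAT5. Bcl11b, a zinc finger protein that binds DNA, is switched on by T cell precursors at lineage commitment. In early T cell precursors it keeps natural killer (NK) genes off, and in Tregs it is known to act beside Foxp3.

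The tables did not hold the same reads. After rows that name no gene were left out, the count table held 14663542 to 16904312 reads in the 4 libraries, and whole reads recovered from the normalized table came to 16884434 to 25335011. On log2 counts-per-million (CPM) over 11556 genes, WT or KO libraries of the same group and table correlated at r = 0.974 to 0.988, and libraries of different tables at 0.805 to 0.855 whatever their name. Levels were therefore not compared between tables. Of 12095 genes tested in both, the median log2 change was -0.014 in the former table and 0.0059 in the latter. WT against KO libraries of the count table correlated at r = 0.898 to 0.905, below its replicates. For the normalized table this range was 0.957 to 0.978, which includes the value of its WT replicates (0.974). WT replicate 2 there was closer to KO replicate 2 (0.978) than to WT replicate 1, so its libraries did not fully group by genotype. The other normalized libraries each correlated best with their own replicate. Some libraries also stood apart from their replicate in certain genes. In the count table, Xist was at 484, 595 and 447 CPM in WT replicate 1 and the KO replicates but at 1.345 CPM in WT replicate 2, with no read on 4 Y-linked genes in any library. The summed level of 24 interferon response genes there was 4044 CPM in WT replicate 1 and 1643 to 2077 CPM in the other three. In the normalized table, 64 genes were listed at 0 in WT replicate 1 while WT replicate 2 held at least 50, against 9 to 15 such genes in the other libraries. The 24 T lineage genes measured (such as CD3 and T cell receptor signalling genes) summed to 5232 and 5186 CPM in WT and 4951 and 5275 CPM in KO.

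Bcl11b RNA (chr12:107910403-108003602, mm10) was present in every library and was lower in both KO libraries than in both WT libraries of each table. In the count table WT replicates 1 and 2 had 419 and 424 CPM and the KO replicates 371 and 369 CPM. The log2 change of -0.19 (SE 0.17) did not pass the edgeR test (adjusted p = 0.527). The normalized table gave 10520 and 11370 normalized reads in WT and 6746 and 5211 in KO, a difference of -0.88 (SE 0.14, limma adjusted p = 0.0895; edgeR on the recovered reads, adjusted p = 0.0987). The authors' deposited table lists a log2 change of -0.80 with an adjusted p of 7.91e-08. Its mean signal equals the mean of the normalized values in all 23393 genes (within 0.001). Its calls are therefore not separate from the normalized table, here and below. The changes in the count and normalized tables differed by 0.68 on the log2 scale, which did not pass the edgeR test of the difference (adjusted p = 0.116). Each table gives a single value per gene, so reads over a deleted stretch could not be set apart from reads over the rest of the transcript.

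Foxp3 (chrX:7573644-7595245) was expressed in all libraries. It fell in the count table, from 210 and 206 CPM in WT to 164 and 155 CPM in KO (log2 change -0.38, SE 0.077, edgeR adjusted p = 0.0254), a call lost when any 1 of these 4 libraries was left out. The normalized values of 2178 and 2420 in WT and 2306 and 2061 in KO overlapped, with a difference of -0.075 (SE 0.14, limma adjusted p = 0.852).

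Genes that rose in KO outnumbered genes that fell in the count table. edgeR called 1369 of 14548 genes higher in KO (9.41%) and 504 lower (3.46%), together 12.9%. In the normalized table limma called 1 of 12208 genes (0.00819%), Fcer1g, while 1585 genes had an unadjusted p under 0.05. edgeR on the recovered reads called 12 of 12253 genes (0.0979%), 8 higher and 4 lower, DESeq2 on them called 379, and the authors' deposited table lists 348 of 10380 genes (3.35%), 177 higher (1.71%) and 171 lower (1.65%). Agreement between tables is given by whether the groups of the normalized table overlapped, a rule that was set together with the tests.

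Called by edgeR in both tables, in the same direction, were 7 genes, 5 higher and 2 lower in KO. For the normalized table this means edgeR on the recovered reads, a fit that was not repeated with libraries left out. Of the 7, limma called Fcer1g alone. The background in the recovered reads is 0.0653% of genes called higher and 0.0326% called lower. The genes lower in KO, Lrrc32 and Gpr83, are both Treg surface genes. Among those higher, Fcer1g, Klrd1 and Cd160 encode an adaptor and receptors of NK and other cytotoxic or myeloid cells. Dapl1 was named as the 1 riser of the naive and central cell list.

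Lrrc32 (GARP, which docks latent TGF-beta on the Treg surface; chr7:98489283-98502181) had 307 and 298 CPM in WT and 106 and 86.9 CPM in KO of the count table. Its log2 change was -1.65 (SE 0.11, edgeR adjusted p = 0.000297). Normalized values were 4952 and 6529 in WT and 2138 and 1731 in KO, a difference of -1.56 (SE 0.17, limma adjusted p = 0.0536; edgeR on recovered reads, adjusted p = 0.0494). Both tables placed both KO libraries far below both WT libraries. Gpr83, an orphan-type G protein-coupled receptor abundant in Tregs (chr9:14860210-14870789), went from 208.5 and 196 CPM to 61.9 and 57.2 CPM (log2 change -1.76, SE 0.23, edgeR adjusted p = 0.00488). Its normalized values went from 5681 and 4519 to 1845 and 2072 (difference -1.37, SE 0.15, limma adjusted p = 0.0536; edgeR on recovered reads 0.0494). Again the groups lay far apart. The count-table call of Gpr83 was lost without KO replicate 1 and without KO replicate 2.

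Fcer1g, the common gamma chain of Fc receptors (chr1:171229572-171234365), was the gene called by edgeR, by limma and in the authors' comparison, which rests on the normalized table. It stood at 11.1 and 11.1 CPM in WT and 67.1 and 68.4 CPM in KO (log2 change 2.61, SE 0.11, edgeR adjusted p = 7.72e-05). In the normalized table it stood at 434 and 632 in WT and 5097 and 5388 in KO (difference 3.32, SE 0.20, limma adjusted p = 0.0046; edgeR on recovered reads 0.00689). The replicates lay close together in both groups. Klrd1 (CD94, an NK receptor subunit; chr6:129591782-129598775) had 4.69 and 6.24 CPM in WT and 23.8 and 25.6 CPM in KO (log2 change 2.17, SE 0.22, edgeR adjusted p = 0.00179). Its normalized values were 44.6 and 45.2 against 375.5 and 512 (difference 3.26, SE 0.40, limma adjusted p = 0.0667). Neither gene lost its count-table call when a library was left out.

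Cd160, a receptor of NK and activated T cells (chr3:96798763-96829351), had 23.6 and 22.1 CPM in WT and 53.2 and 44.5 CPM in KO (log2 change 1.10, SE 0.16, edgeR adjusted p = 0.00759). The normalized values of 420 and 616 in WT and 2242 and 2402 in KO gave a larger difference, 2.19 (SE 0.22, limma adjusted p = 0.0519). Its KO libraries were above its WT libraries in both tables. Dapl1, which encodes a small death-associated-protein-like protein (chr2:59484653-59505020), had 14.5 and 18.2 CPM in WT and 26.1 and 28.4 CPM in KO (log2 change 0.74, SE 0.16, edgeR adjusted p = 0.0328). Its normalized values were 253 and 327.5 against 1159 and 1114 (difference 1.98, SE 0.23, limma adjusted p = 0.0536, edgeR on recovered reads 0.0494). Here too the groups lay apart in both tables. Slc25a33, a mitochondrial pyrimidine nucleotide carrier (chr4:149744036-149774277), had 23.5 and 23.1 CPM in WT and 39.3 and 36.7 CPM in KO (log2 change 0.71, SE 0.12, edgeR adjusted p = 0.0145). Normalized values of 377 and 320.0 in WT and 1356 and 1358 in KO gave a difference of 1.96 (SE 0.20, limma adjusted p = 0.0519). The 2 changes of Slc25a33 differed by -1.26 (count minus normalized, edgeR adjusted p = 0.0342), so that it rose in both tables but by less in the count table. Without any 1 of the WT and KO libraries the count-table calls of Dapl1 and Slc25a33 were lost, and that of Cd160 was lost without either WT library or KO replicate 1.

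**Figure D1:**
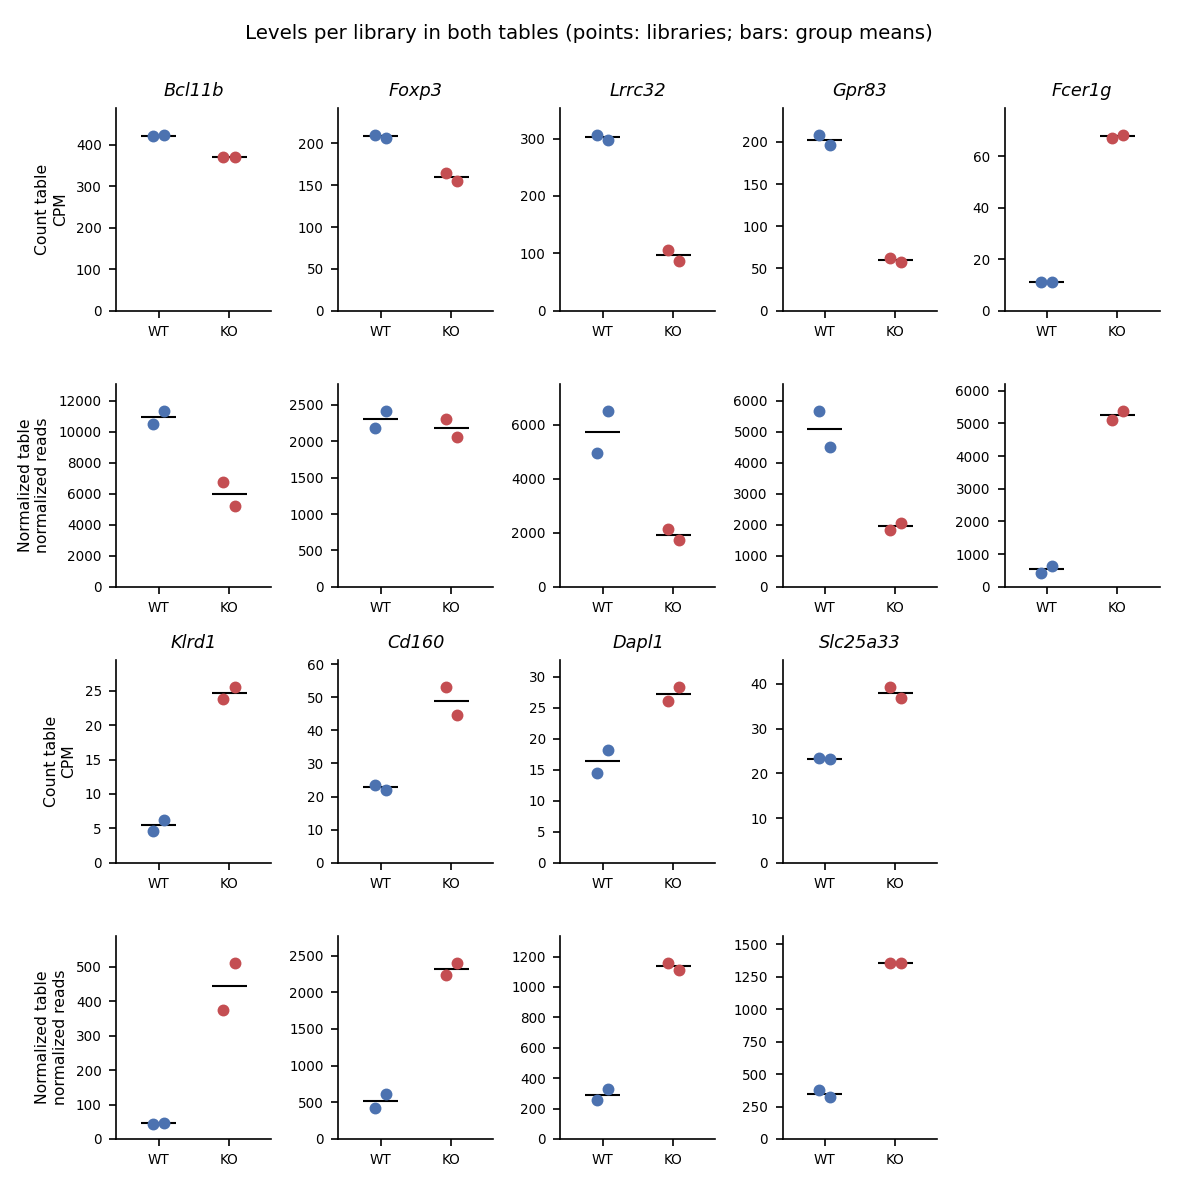
Levels of Bcl11b, Foxp3 and the 7 genes called by edgeR in both tables, in CPM (upper panel of each pair, count table) and in normalized reads (lower panel, normalized table). Points are libraries and bars are group means of 2 libraries. Fcer1g stands at 11.1 and 11.1 CPM in WT and at 67.1 and 68.4 CPM in KO, and the WT and KO points of Foxp3 overlap in the normalized table.

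Promoters (250 bases before to 50 after the start, RefSeq, GRCm38.p6) were found for 5 of these 7 genes. They are shown for Fcer1g, called by every test of KO against WT, for Gpr83, which fell in both tables, and for Slc25a33, whose rise differed in size. Capitals mark matches to 3 letter patterns searched on both strands: TTCNNNGAA (bound by STAT factors), TGTGGT (bound by RUNX factors, partners of Bcl11b in T cells) and GGCCGG (a GC-rich core of CTIP family sites, the family of Bcl11b). The patterns are in 8.3%, 16.8% and 19.0% of 32851 mouse promoters of this length. Coordinates are chr1:171234300-171234599 (minus strand) for Fcer1g, chr9:14859960-14860259 (plus) for Gpr83 and chr4:149774218-149774517 (minus) for Slc25a33.
Fcer1g: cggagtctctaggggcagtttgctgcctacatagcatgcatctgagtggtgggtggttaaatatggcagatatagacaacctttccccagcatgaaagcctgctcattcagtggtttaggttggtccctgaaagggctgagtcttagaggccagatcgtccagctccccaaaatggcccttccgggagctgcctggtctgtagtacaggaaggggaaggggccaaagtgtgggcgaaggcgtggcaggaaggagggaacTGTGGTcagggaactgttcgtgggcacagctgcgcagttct
Gpr83: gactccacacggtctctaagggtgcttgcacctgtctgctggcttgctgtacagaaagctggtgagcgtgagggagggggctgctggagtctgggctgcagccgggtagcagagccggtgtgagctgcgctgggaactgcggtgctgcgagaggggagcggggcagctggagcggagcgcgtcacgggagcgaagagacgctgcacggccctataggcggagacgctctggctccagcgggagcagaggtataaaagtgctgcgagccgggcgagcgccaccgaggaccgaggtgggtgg
Slc25a33: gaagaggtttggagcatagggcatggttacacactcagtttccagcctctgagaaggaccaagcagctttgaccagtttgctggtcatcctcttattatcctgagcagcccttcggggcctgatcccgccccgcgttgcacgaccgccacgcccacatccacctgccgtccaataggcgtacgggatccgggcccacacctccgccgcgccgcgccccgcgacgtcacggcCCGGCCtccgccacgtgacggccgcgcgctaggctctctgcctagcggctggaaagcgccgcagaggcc
The Fcer1g promoter held 1 TGTGGT, the Slc25a33 promoter 1 GGCCGG (read as its reverse complement), and the Gpr83 promoter none of the 3 patterns. A match is a description of letters, not a bound site.

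Across all genes, the direction of change was the same in both tables for 7114 of 12095 (58.8%). Of 1132 genes called higher in the count table and tested in both, 568 (50.2%) had both normalized KO libraries above both WT libraries, against 23.5% of all 12095 genes. In 493 (43.6%) the normalized groups overlapped, and in 71 (6.27%) they lay apart the other way. The sign of the normalized change was the same in 79.9% of the 1132. Of 448 genes called lower, 189 (42.2%) lay apart in the same direction, against 22.4% of all genes, 212 (47.3%) overlapped and 47 (10.5%) lay apart the other way, with the same sign in 69.6% of the 448. Of all genes, 4.22% lay apart higher in the count table and lower in the normalized table, and 5.31% the reverse. The total of 757 genes moving the same way became 436 to 467 when a WT or KO library of the count table was left out. Counted instead by the authors' deposited table, 111 genes were called higher in both and 39 lower in both. These are 62.7% of the 177 genes listed there as higher and 23.1% of the 169 listed as lower that were tested in both, and 9.81% and 8.71% of the genes called higher and lower in the count table.

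**Figure D2:**
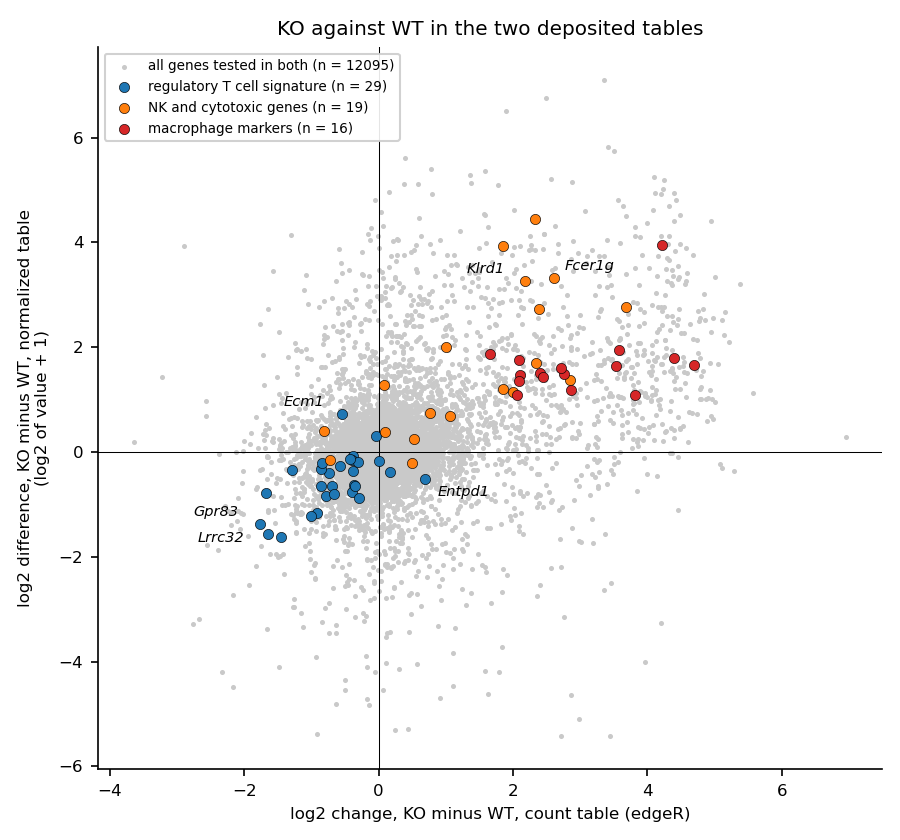
Log2 change KO minus WT of 12095 genes in the count table (x axis, edgeR) and the normalized table (y axis, log2 of value + 1, limma), with members of 3 gene lists coloured. All 16 macrophage markers lie to the upper right, most of the 29 Treg signature genes to the lower left, and Entpd1 and Ecm1 lie in opposite quadrants.

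Genes of the Treg signature were mostly lower in KO in both tables. Of 29 members tested, 18 fell and 1 rose in the count table (3.46% and 9.41% of all genes did). Groups of the normalized table lay apart lower for 23 and higher for 1, against 22.4% and 23.5% of all genes. In 21 members both tables agreed on lower, against 10.5% of all genes, and in 0 on higher (10.9% of all genes). The median log2 changes were -0.58 and -0.52. The authors' deposited table lists 10 of them as lower and 1 as higher (1.65% and 1.71% of its genes). The summed level of the list was 4950 and 4795 CPM in WT and 3123 and 3079 CPM in KO. In bulk RNA, fewer cells of a type and less RNA per cell cannot be told apart.

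Il2ra, the alpha chain of the interleukin-2 receptor, had 351 and 332 CPM in WT and 186 and 189 CPM in KO (log2 change -0.87, SE 0.073, edgeR adjusted p = 0.000829). Its normalized values were 9773 and 9825 against 5674 and 6949 (difference -0.64, SE 0.12, limma adjusted p = 0.125). Ikzf2 (Helios, a transcription factor of stable Tregs) had 504 and 459 CPM in WT and 296 and 266 CPM in KO (log2 change -0.78, SE 0.12, edgeR adjusted p = 0.00965), and 2867 and 2853 against 1741 and 1455 in the normalized table. In both genes the WT and KO libraries of each table lay well apart. Ctla4, the inhibitory receptor that takes CD80 and CD86 from antigen-presenting cells, had 230 and 241 CPM in WT and 137 and 154.5 CPM in KO (log2 change -0.69, SE 0.12, edgeR adjusted p = 0.0147). Its normalized values were 5619 and 4291 against 2739 and 3594. Dusp4, a phosphatase of MAP kinases, fell the most of the list after Gpr83, from 204 and 204 CPM to 60.1 and 67.0 CPM (log2 change -1.68, edgeR adjusted p = 0.000106), and from 994 and 694 to 522 and 451 in normalized values.

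Lower in both tables were also Nrp1 (neuropilin 1), Izumo1r (folate receptor 4) and the costimulatory receptor Tnfrsf4 (OX40). Nrp1 had 336 and 342 CPM in WT and 261 and 254 CPM in KO, and 9970 and 9051 against 6319 and 4984 in the normalized table. Izumo1r had 173 and 162 CPM against 130 and 130 CPM, and 10560 and 9108 against 6548 and 6117. Tnfrsf4 had 106 and 100.5 CPM against 63.7 and 66.5 CPM, and 5275 and 5476 against 2951 and 3185. The edgeR adjusted p-values in the count table were 0.0255, 0.0219 and 0.00424. The calls of Ctla4, Nrp1 and Izumo1r were lost without any 1 of the WT and KO libraries, that of Ikzf2 without WT replicate 1 or either KO library, and that of Tnfrsf4 without KO replicate 1.

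Entpd1 (CD39, which breaks down extracellular ATP) and Ecm1 (a secreted matrix protein; named after its values were seen) did not follow the rest of the list. Entpd1 rose in the count table, from 79.3 and 84.6 CPM to 130 and 133 CPM (log2 change 0.69, SE 0.10, edgeR adjusted p = 0.00828), and was lower in both KO libraries of the normalized table, at 890 and 898 in KO against 1497 and 1105 in WT. Ecm1 was lower in the count table, at 118 and 93.5 CPM in KO against 160.5 and 150 CPM in WT (edgeR adjusted p = 0.0605), and higher in the normalized table, at 11740 and 11160 in KO against 7716 and 6297 in WT (the authors' deposited table lists an adjusted p of 3.53e-06). The changes differed between tables by 1.22 for Entpd1 (edgeR adjusted p = 0.0413) and by -1.26 for Ecm1 (edgeR adjusted p = 0.0343). The count-table call of Entpd1 was lost without WT replicate 1 or either KO library.

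Interleukin-2 and STAT5 genes overlap this list. Of 19 tested, 8 fell and 1 rose in the count table (3.46% and 9.41% of all genes did). Of these 19, 9 were lower and 1 higher in both tables (47.4% and 5.26%, against 10.5% and 10.9% of all genes), with medians of -0.30 and -0.30. The STAT5 target Cish went from 167 and 166 CPM to 99.99 and 99.0 CPM (log2 change -0.74, SE 0.063, edgeR adjusted p = 0.000863), and from 4860 and 4230 to 3213 and 3685 in normalized values. Socs2, an inhibitor of cytokine signalling, went from 97.7 and 99.4 CPM to 41.8 and 38.8 CPM (log2 change -1.29, edgeR adjusted p = 0.000201), with 423 and 476 against 332 and 373.5 normalized. Socs1 and Socs3, of the same inhibitor family, also fell in the count table (edgeR adjusted p = 0.0447 and 0.0277), calls that were lost without any 1 of the WT and KO libraries. Socs3 had 6846 and 6510 normalized reads in WT and 4073 and 3557 in KO. Il2 itself, which Tregs keep low, was the member that rose: 0.56 and 0.67 CPM in WT against 5.50 and 6.13 CPM in KO (edgeR adjusted p = 0.00337), and 0 and 25.9 against 38.0 and 81.6 normalized.

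Of 16 TNF receptor superfamily genes, 4 fell and 4 rose in the count table (3.46% and 9.41% of all genes did), and 6 were lower and 3 higher in both tables (37.5% and 18.8%, against 10.5% and 10.9%). The 23 effector Treg genes split as well, with 5 that fell and 4 that rose in the count table (against the same 3.46% and 9.41%). Their medians were -0.055 and -0.32, the former of the other sign in 2 of 11 alternatives and the latter -0.20 without WT replicate 2. Areg, the tissue repair factor amphiregulin, had 23.99 and 33.0 CPM in WT and 3.34 and 5.66 CPM in KO (log2 change -2.67, SE 0.37, edgeR adjusted p = 0.00612), and 78.9 and 34.5 against 3.31 and 6.87 normalized. Id2, a helix-loop-helix regulator, rose from 64.9 and 64.4 CPM to 99.1 and 117 CPM (log2 change 0.74, edgeR adjusted p = 0.0053), and stood at 3529 and 3248 against 5997 and 6062 normalized. Areg and Id2 thus separated the groups in both tables, in opposite directions. Il10, the suppressive cytokine, fell in the count table, from 29.7 and 38.6 CPM to 10.9 and 10.5 CPM (edgeR adjusted p = 0.005). Its normalized values of 62.4 and 33.4 in WT and 85.2 and 51.5 in KO overlapped, and the difference between tables did not pass the edgeR test (adjusted p = 0.123). The calls of Areg, without KO replicate 1, and Il10, without either KO library, were lost. TGF-beta genes (16 tested in both) were lower in both tables in 4 and higher in 2 (25.0% and 12.5%, against 10.5% and 10.9% of all genes). Itgb8, an integrin subunit that activates latent TGF-beta, had 41.7 and 36.6 CPM in WT and 13.0 and 11.99 CPM in KO (log2 change -1.64, edgeR adjusted p = 0.00222), and 237 and 104.5 against 67.8 and 78.1 normalized.

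NK and cytotoxic genes were higher in KO. Of 22 tested in the count table, 12 rose and 0 fell (9.41% and 3.46% of all genes did). Of 19 tested in both tables, 13 were higher in both and 0 lower in both, against 10.9% and 10.5% of all genes, with medians of 1.84 and 1.28. The authors' deposited table lists 5 as higher (1.71% of its genes). Tyrobp (DAP12, an adaptor of NK and myeloid receptors) had 9.44 and 9.84 CPM in WT and 46.4 and 51.3 CPM in KO (log2 change 2.34, SE 0.12, edgeR adjusted p = 0.000107), and 252 and 362 against 1014 and 942 normalized. Klrk1 (the activating receptor NKG2D) had 9.87 and 11.1 CPM against 47.2 and 62.0 CPM (edgeR adjusted p = 0.0158), and 29.3 and 178 against 492 and 477 normalized. WT replicate 1 of the normalized table was the lowest library. Klrb1c (NK1.1) had 9.94 and 10.5 CPM against 47.5 and 34.2 CPM (edgeR adjusted p = 0.00117), and 99.3 and 194 against 414 and 227. Nkg7, a protein of cytotoxic granules, had 25.6 and 23.5 CPM against 51.5 and 50.8 CPM (edgeR adjusted p = 0.0191), and 1138 and 1636 against 2302 and 2099. The groups of these 4 genes did not overlap in either table, though the calls of Klrk1 and Nkg7 were lost without any 1 of the WT and KO libraries. The NK receptors Klra4 and Klra8 are listed at 0 in all 4 libraries of both tables. The summed level of the list was 337 and 326 CPM in WT and 674 and 712 CPM in KO.

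Macrophage markers were higher in KO beside the NK genes, some of which macrophages also express. All 16 rose in the count table (9.41% of all genes did). All 16 were higher in both KO libraries than in both WT libraries of each table, against 10.9% of all genes. The authors' deposited table lists 11 as higher (1.71% of its genes). The medians were 2.73 and 1.56. Their summed level was 453 and 501 CPM in WT and 2729 and 3157 CPM in KO, and 14790 and 25460 against 59940 and 50230 normalized. None was at 0 in WT. Csf1r, the receptor that macrophages need to survive, had 48.0 and 58.6 CPM in WT and 325.0 and 394 CPM in KO (log2 change 2.75, SE 0.14, edgeR adjusted p = 0.000121), and 1680 and 2866 against 6694 and 5612 normalized. The complement gene C1qa had 26.9 and 23.5 CPM against 100.4 and 115.5 CPM (edgeR adjusted p = 0.000121), and 526 and 756 against 1976 and 1551. In both genes normalized WT replicate 2 was above replicate 1 and below KO. Adgre1 (F4/80) had 22.4 and 18.7 CPM against 213 and 262 CPM (edgeR adjusted p = 7.97e-05), and 319.5 and 884.5 against 1744 and 1589. Spic, a transcription factor of red pulp macrophages of the spleen, had 6.62 and 6.24 CPM against 73.6 and 80.5 CPM (edgeR adjusted p = 0.000121), and 159 and 308 against 850.1 and 856. Each of these genes separated the groups in both tables, by several fold in the count table and by less in the normalized table. What part RNA of such cells has in the rises of Fcer1g, Tyrobp and the other NK and cytotoxic genes was not tested.

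The size of the rise also differed between tables. Cd163, a haemoglobin scavenger receptor, had 5.75 and 8.87 CPM against 138 and 171 CPM and 109.5 and 86.2 against 417 and 274 normalized, and its changes differed by 2.57 (edgeR adjusted p = 0.035). Its groups lay apart in both tables, by more in the count table.

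Markers of other cells moved less evenly. Of 11 MHC class II presentation genes, 8 rose in the count table (9.41% of all genes did), and 5 were higher and 1 lower in both tables (45.5% and 9.09%, against 10.9% and 10.5% of all genes). The medians were 2.36 and 0.35, the latter 0.66 without KO replicate 2. H2-Aa had 20.4 and 18.5 CPM in WT and 89.7 and 111 CPM in KO (edgeR adjusted p = 0.000199), and 493 and 767 against 1781 and 1502 normalized. Cd74, the invariant chain, had 77.5 and 73.9 CPM against 127 and 158.5 CPM (edgeR adjusted p = 0.00468), and 4439 and 6416 against 11990 and 10380. Ciita, the transactivator of these genes, rose in the count table, from 2.50 and 2.87 CPM to 18.1 and 29.9 CPM (edgeR adjusted p = 0.00879), and was lower in the normalized table, at 103 and 63.5 in KO against 192 and 108 in WT. H2-DMb1, a peptide loading subunit, had 4.999 and 4.89 CPM against 55.8 and 66.2 CPM, and 182 and 132.5 against 191 and 206. The changes differed between tables by 3.99 for Ciita (edgeR adjusted p = 0.0366) and by 3.28 for H2-DMb1 (edgeR adjusted p = 0.0207). The count-table call of Ciita was lost without either WT library or KO replicate 2.

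Dendritic cell markers (10 tested in both) were higher in both tables in 4, monocyte and neutrophil markers (10) in 3, CD8 lineage genes (4) in 3, plasma cell markers (5) in 3, erythroid markers (4) in 3, stromal and endothelial markers (5) in 1, and B cell markers (9) in 2 with 1 lower, against 10.9% of all genes higher and 10.5% lower. B cell markers had medians of 1.98 and 0.047. The former was 0.69 without KO replicate 2, the latter had the other sign in 5 of 10 alternatives, and their summed level was 89.1 and 88.4 CPM in WT against 115 and 188 CPM in KO. Cd22, a B cell receptor inhibitor, had 13.1 and 14.3 CPM in WT and 50.05 and 63.5 CPM in KO (edgeR adjusted p = 0.0133, lost without any 1 of these libraries), and 442 and 755 against 719 and 495 normalized, where the groups overlapped. Irf8, a transcription factor of dendritic cells and B cells, rose in the count table alone, from 66.6 and 64.3 CPM to 137 and 144 CPM (edgeR adjusted p = 0.00947, lost likewise). It had 1338 and 1423 against 1493 and 1121 normalized, and its changes differed by 1.18 (edgeR adjusted p = 0.0371). Itgax (CD11c) was higher in both, at 4.999 and 6.30 CPM against 91.9 and 123 CPM and at 12.7 and 32.3 against 191 and 109 normalized.

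Th1 genes rose in the count table. Of 15 Th1 genes, 8 rose and 0 fell there (9.41% and 3.46% of all genes did). Of 14 tested in both, 6 were higher in both tables (42.9% against 10.9% of all genes). The medians were 0.91 and 0.38, the latter 0.15 without WT replicate 1 and 0.61 without KO replicate 2. Ifng, the defining Th1 cytokine, had 25.6 and 32.3 CPM in WT and 47.9 and 66.2 CPM in KO (log2 change 0.98, SE 0.18, edgeR adjusted p = 0.0192, lost without WT replicate 1 or KO replicate 2), and 267 and 263 against 775 and 627 normalized. Tbx21 (T-bet, the Th1 master regulator) rose from 14.1 and 14.9 CPM to 83.3 and 63.2 CPM (log2 change 2.34, SE 0.29, edgeR adjusted p = 0.00381) but overlapped in the normalized table, at 628 and 949 against 989 and 808. The difference of its changes, 2.15, passed the edgeR test (adjusted p = 0.0337). The groups of Ifng lay apart in both tables and those of Tbx21 in the count table.

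Among 14 follicular T cell genes, 6 rose in the count table (9.41% of all genes did). Higher in both tables were 2 (14.3%, near the 10.9% of all genes). The medians were 0.78 and 0.0049, the latter of the other sign in 3 of 10 alternatives. Cd40lg, the ligand by which T cells help B cells, had 43.2 and 56.4 CPM in WT and 81.7 and 93.8 CPM in KO (edgeR adjusted p = 0.0164, lost without WT replicate 1 or either KO library), and 1621 and 1778 against 2773 and 2740 normalized. Pdcd1 (PD-1) rose in the count table, from 57.4 and 42.9 CPM to 89.3 and 78.2 CPM (edgeR adjusted p = 0.0253, lost without WT replicate 2 or either KO library), and was lower in the normalized table, at 3597 and 2689 in KO against 4406 and 4000 in WT. The difference of its changes did not pass the edgeR test (adjusted p = 0.0813). Il21, a cytokine of follicular helper cells, had 1.94 and 1.71 CPM in WT and 43.6 and 25.1 CPM in KO (log2 change 4.23, SE 0.35, edgeR adjusted p = 0.000755), and 685 and 368.5 against 634 and 531 normalized. Sostdc1, a secreted inhibitor of BMP and Wnt signals, had 0.31 and 0.18 CPM in WT, the latter 3 reads, and 42.3 and 21.2 CPM in KO, while the normalized table had 456 and 623 against 806 and 525.5. The edgeR test of the difference between tables passed for Il21 (4.08, adjusted p = 0.0241) and for Sostdc1 (adjusted p = 0.0207). In both genes the WT libraries, low in the count table, were level with KO in the normalized table.

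**Figure D3:**
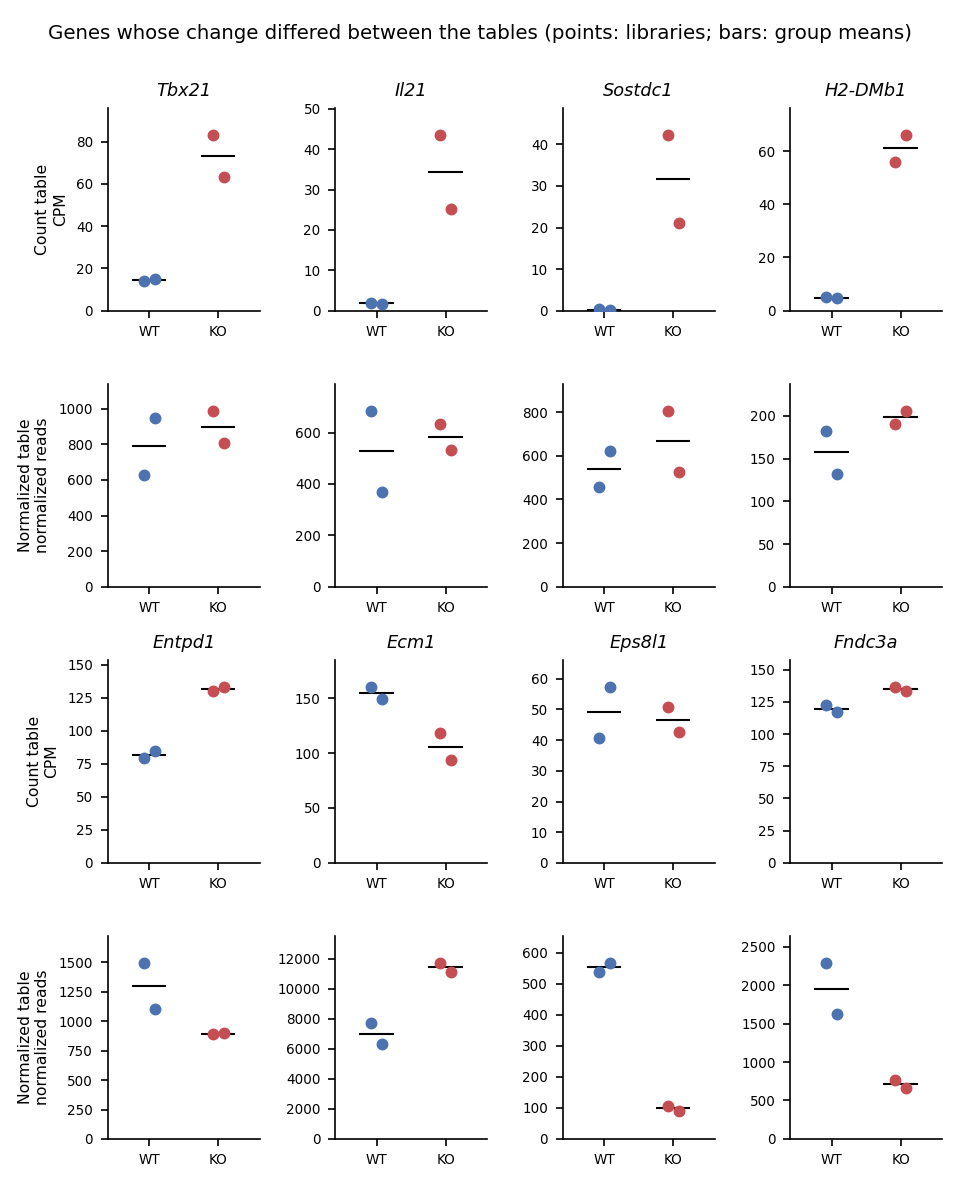
Levels of 8 genes whose KO minus WT change differed between the tables by the edgeR test, in CPM (upper panel of each pair, count table) and in normalized reads (lower panel, normalized table). Points are libraries and bars are group means of 2 libraries. Tbx21, Il21, Sostdc1 and H2-DMb1 separate the groups by several fold in the count table, while in the normalized table those of Tbx21, Il21 and Sostdc1 overlap and those of H2-DMb1 lie close together. Eps8l1 separates the groups in the normalized table only.

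The test of the difference between tables called 151 of 14270 genes (1.06%), 119 with the more positive change in the count table (0.834%) and 32 with the more negative (0.224%). That count ranged from 1 to 484 when single libraries were left out, being 484 and 458 without normalized WT replicates 1 and 2 and 1 to 14 without any other. Of the 71 genes that rose in the count table and lay apart lower in the normalized table, Epb41l1, a membrane skeleton protein, had 6.498 and 7.95 CPM in WT and 28.9 and 32.9 CPM in KO (edgeR adjusted p = 0.00328), and 49.6 and 61.4 against 16.5 and 21.5 normalized. Of the 47 with the reverse pattern, Ntn4, a secreted netrin, had 23.99 and 12.9 CPM in WT and 2.10 and 1.84 CPM in KO (edgeR adjusted p = 0.0115), and 202 and 125.0 against 508 and 369 normalized. Garre1 had 116 and 132 CPM against 87.2 and 95.5 CPM (edgeR adjusted p = 0.0321), and 886 and 912.5 against 1220 and 1303. The changes differed by 3.63 for Epb41l1 (edgeR adjusted p = 0.0218), by -4.65 for Ntn4 (edgeR adjusted p = 0.0218) and by -0.94 for Garre1 (edgeR adjusted p = 0.0413). The count-table calls of Garre1, without any 1 of the WT and KO libraries, and Ntn4, without WT replicate 1 or either KO library, were lost. Tnfrsf21 (death receptor 6) rose in the count table, from 2.87 and 3.42 CPM to 91.1 and 101 CPM, and was higher in the normalized table by less, at 375.5 and 446.5 in KO against 91.7 and 173.5 in WT (difference of changes 3.30, edgeR adjusted p = 0.0218).

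The largest changes that were shared by both tables were ranked by the smaller of the 2 absolute log2 changes. Of the 12 rises, all but Tgm1 were listed at 0 in normalized WT replicate 1, the library with the excess of such values. Tmem26, a membrane protein, had 4.44 and 5.01 CPM in WT and 94.2 and 117 CPM in KO, and 0 and 231 against 299 and 410 normalized. Pparg, a lipid-sensing nuclear receptor of tissue Tregs and macrophages, had 2.999 and 1.65 CPM against 44.0 and 41.8 CPM, and 0 and 71.1 against 122 and 174. Tgm1, a transglutaminase, did not depend on a 0, with 3.06 and 3.91 CPM against 58.6 and 62.0 CPM (log2 change 4.11, SE 0.17, edgeR adjusted p = 7.33e-05), and 2.55 and 5.39 against 145 and 147 normalized. Since 1 read is 1.27 in normalized WT replicate 1 and 1.08 in WT replicate 2, its WT values there are a few reads. Without genes listed at 0 in any normalized library, the rises shared by both tables numbered 461 and the falls 188.

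Among the 12 falls, beside Areg, Lrrc32 and Gpr83, Gbp2b, an interferon-induced guanylate-binding protein, had 46.0 and 44.4 CPM in WT and 14.0 and 9.81 CPM in KO (log2 change -1.92, SE 0.22, edgeR adjusted p = 0.00288), and 229 and 216.5 against 32.2 and 42.9 normalized. Neb, the giant muscle protein nebulin, had 58.4 and 67.9 CPM against 21.3 and 18.7 CPM (log2 change -1.66, edgeR adjusted p = 0.00113), and 369 and 416 against 17.4 and 77.3. Stra6, the retinol transporter, had 12.2 and 14.4 CPM against 3.91 and 1.29 CPM (edgeR adjusted p = 0.0351, lost without either WT library or KO replicate 2), and 117 and 69.0 against 2.48 and 6.01. These 3 genes were low in every KO library. Vegfa, the endothelial growth factor, had 10.1 and 9.72 CPM against 1.47 and 1.91 CPM (edgeR adjusted p = 0.00233), and 20.4 and 38.8 against 19.0 and 2.58. The normalized groups of Vegfa were barely apart, while those of Gbp2b, Neb and Stra6 were well separated.

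Genes that follow T cell receptor and NF-kappaB signals were lower in the count table and less evenly so in the normalized table. Of 22 early receptor-induced genes, 6 fell and 0 rose (3.46% and 9.41% of all genes did), and 4 were lower in both tables (18.2% against 10.5%). The medians of -0.33 and -0.034 ran from -0.52 to -0.15 and from -0.25 to 0.18 when single libraries were left out, the extremes being without KO replicates 2 and 1 of the count table and WT replicates 2 and 1 of the normalized table. The orphan nuclear receptor Nr4a3 had 270 and 271 CPM in WT and 76.1 and 84.5 CPM in KO (log2 change -1.75, SE 0.079, edgeR adjusted p = 8.16e-05), and 100.6 and 74.3 against 32.2 and 18.0 normalized. Its relative Nr4a2 had 132 and 123 CPM against 29.1 and 45.5 CPM (edgeR adjusted p = 0.0036), and 452 and 238 against 285 and 235, where the groups overlapped. Of 13 NF-kappaB subunits and inhibitors, 4 fell and 0 rose in the count table (against the same 3.46% and 9.41%). Lower in both tables were 6 (46.2% against 10.5% of all genes). Nfkb2 had 226 and 221 CPM against 159 and 170 CPM (edgeR adjusted p = 0.0125, lost without either WT library or KO replicate 1), and 3729 and 4190 against 2777 and 2974. Rel, the subunit most tied to Treg development, had 135 and 130 CPM against 52.3 and 60.4 CPM (edgeR adjusted p = 0.000444), and 969 and 567 against 662 and 702. Nr4a3 and Nfkb2 thus separated the groups in both tables, and Nr4a2 and Rel in the count table, though the difference between tables passed the edgeR test for neither of the latter (adjusted p = 0.193 and 0.169).

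**Figure D4:**
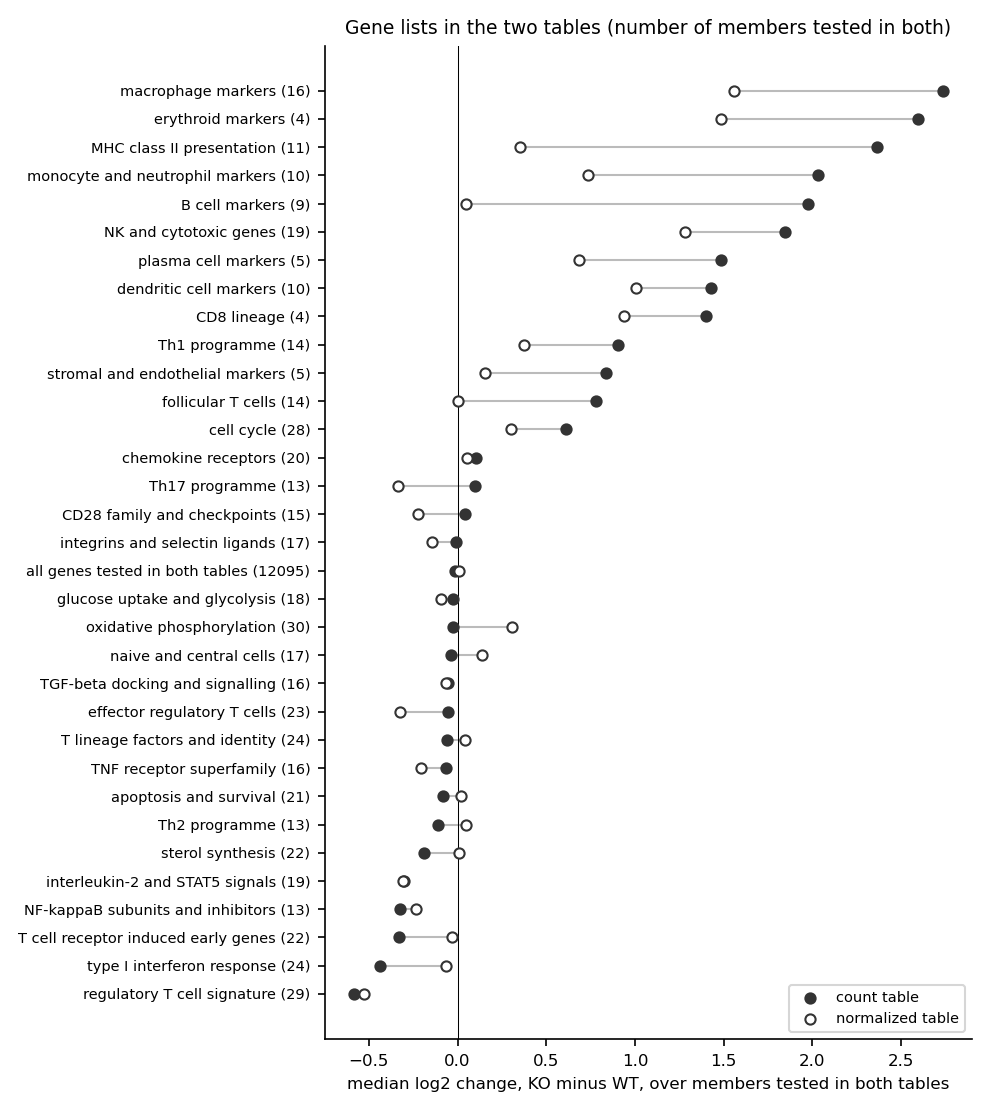
Median log2 change KO minus WT of each gene list in the count table (filled points) and the normalized table (open points), over the members tested in both, whose number follows the name. Macrophage markers (2.73 and 1.56) and NK and cytotoxic genes (1.84 and 1.28) lie to the right in both tables, the Treg signature (-0.58 and -0.52) to the left in both, and B cell markers (1.98 and 0.047) in the count table only.

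Programmes of growth and metabolism were described likewise. In the count table edgeR called 0 of 28 cell cycle genes, 1 had an unadjusted p under 0.05 and DESeq2 called 0. The groups lay apart higher in KO for 23 of them there, against 32.1% of all genes, and for 10 in the normalized table, against 23.5%. In that list 8 were higher in both tables and none lower (28.6% against 10.9% of all genes, medians 0.61 and 0.30). The normalized median was 0.105 without WT replicate 1 and 0.47 without KO replicate 2. edgeR called 0 of 30 oxidative phosphorylation genes there, with 0 at an unadjusted p under 0.05 and 0 by DESeq2. In the normalized table, however, 20 of them were higher in both KO libraries, against 23.5% of all genes. In the count table just 2 were higher, against 32.1% of all genes, and 6 were lower, against 34.1%. Their medians were -0.026, of the other sign in 2 of 11 alternatives, and 0.31. Listed as higher in the authors' deposited table were 3 (1.71% of its genes). Of 22 sterol synthesis genes, 5 fell in the count table (3.46% of all genes) and 4 were lower in both (18.2% against 10.5%), with medians of -0.19 and 0.011, the latter of the other sign in 4 of 10 alternatives. edgeR called 0 of 24 interferon response genes in the count table, with 1 at an unadjusted p under 0.05 and 0 by DESeq2 (medians -0.44 and -0.064). There the summed level of WT replicate 1 stood apart as given above, and the median was 0.36 without that library and -0.99 without WT replicate 2. No other alternative tried turned its sign. The authors' deposited table lists 4 as lower (1.65% of its genes). Of 18 glycolysis genes, 2 fell in the count table (3.46% of all genes did), the glucose transporters Slc2a1 and Slc2a3. Slc2a1 went from 130 and 137 CPM to 79.6 and 78.4 CPM (edgeR adjusted p = 0.00113). Slc2a3 went from 174 and 194 CPM to 112 and 110 CPM (edgeR adjusted p = 0.00231). Slc2a1 had 1673 and 1698 against 1350 and 1245 normalized, and Slc2a3 3217 and 3262 against 2639 and 2676, so both were also lower there. Of the list, 4 members were lower in both tables (22.2% against 10.5% of all genes). Of 21 apoptosis and survival genes, 3 rose and 2 fell in the count table (9.41% and 3.46% of all genes did). Higher in both tables were 4 and lower 1 (19.0% and 4.76%, against 10.9% and 10.5% of all genes).

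Of 24 T lineage genes, 1 rose and 1 fell in the count table (9.41% and 3.46% of all genes did). Higher in both tables were 3 and lower 3 (12.5% each, near the 10.9% and 10.5% of all genes). The riser, Themis, a T cell receptor signalling protein, had 122 and 121.5 CPM in WT and 192 and 218 CPM in KO (log2 change 0.75, SE 0.084, edgeR adjusted p = 0.00259), and 1752 and 2159 against 3113 and 3041 normalized. Of 17 integrins and selectin ligands, 4 rose and 3 fell (9.41% and 3.46% of all genes did), and 4 were higher in both tables and 6 lower (23.5% and 35.3%, against 10.9% and 10.5%). Itgb3, a vitronectin receptor subunit, rose from 122.5 and 125 CPM to 191 and 183 CPM (edgeR adjusted p = 0.00251), with 1486 and 1909 against 3386 and 3764 normalized. Itga6, a laminin receptor subunit, fell from 383 and 405 CPM to 214 and 234 CPM (edgeR adjusted p = 0.0247, lost without any 1 of the WT and KO libraries), with 6179 and 5184 against 3133 and 3270. Of 17 naive and central cell genes, 1 rose and 1 fell in the count table (against the same 9.41% and 3.46%). Higher in both tables were 4 and lower 5 (23.5% and 29.4%, against 10.9% and 10.5% of all genes). Themis, Itgb3 and Itga6 each separated the groups in both tables.

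Some of the largest changes in the authors' deposited table were not called in the count table. Eps8l1, an actin regulator, had 540 and 568 normalized reads in WT and 107.5 and 91.0 in KO (edgeR on recovered reads, adjusted p = 0.0494), and 40.7 and 57.4 CPM against 50.7 and 42.7 CPM in the count table. Fndc3a, a fibronectin domain protein, had 2291 and 1622 against 767 and 656 normalized, and 122.5 and 117 CPM against 137 and 134 CPM. Pigg, an enzyme of GPI anchor synthesis, had 496.5 and 394 against 66.2 and 108, and 12.8 and 10.03 CPM against 18.1 and 15.3 CPM. The changes of these 3 genes differed between tables by 2.40, 1.63 and 2.90 (edgeR adjusted p = 0.0218, 0.0276 and 0.0362). Ikzf4 (Eos, a partner of Foxp3) was lower in both tables, at 69.5 and 43.6 CPM in KO against 112 and 102.5 CPM in WT and at 1314 and 1393 against 2714 and 3437, but missed the count-table test (edgeR adjusted p = 0.0868). Emid1, a secreted protein with a collagen stretch, and Camk2b, a calmodulin-dependent kinase, were higher in both tables and missed it likewise (edgeR adjusted p = 0.074 and 0.0579). Emid1 had 112 and 127 normalized reads in WT and 793 and 962 in KO, and 3.87 and 5.01 CPM against 23.2 and 8.65 CPM. Leaving out 1 KO EAE library turned the count-table results of Ikzf4, Camk2b and Ecm1 (either library), and of Emid1 (KO EAE replicate 2), into calls, as did leaving out KO replicate 2 for Emid1.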

How the data were processed

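Per the labels' protocols, RNA of Tregs sorted from spleen and lymph nodes was sequenced on a NextSeq500, and HISAT2, HTSeq, DESeq2 and mm10 are named in the submitters' processing notes. Versions, annotation and strand setting were not given in the sources used here, so antisense or overlapping genes and near-identical copies cannot be told apart. The authors deposited read counts per gene for 6 libraries. They also deposited a normalized signal (counts divided by size factors) for 4 libraries, and a comparison table that lists, per the file headers, log2 fold changes, a test score, p-values with adjusted p-values and a mean signal; its fold changes are the authors' own. Of the values above 0 in the normalized set, 100% were whole multiples of 1 read (tolerance 0.02 reads), so reads were recovered. Rows that name no gene (25 of 24449 and 27 of 23420, at most 0.217% and 0.284% of a library) were left out, leaving 24424 and 23393 genes, of which 23309 are in both.

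Counts were tested with edgeR 4.0.16 in R 4.3.3 (filterByExpr with a minimum count of 10 and total of 15, TMM, quasi-likelihood test) over all 6 libraries, with the contrast KO minus WT. Normalized values were tested with limma 3.58.1 (trend) on log2(value + 1), for genes with at least 10 in at least 2 libraries. That scale can understate or overstate changes of low genes. Tmem26, listed at 0 in normalized WT replicate 1, changed by 4.53 on it and by 1.61 with edgeR on recovered reads. Il1a, listed at 0 in both normalized WT libraries, changed by 5.20 and 8.30. Tests are two-sided and adjusted by Benjamini-Hochberg over all genes tested, with a threshold of 0.05. The difference between tables is an edgeR genotype by table interaction on the reads of 8 libraries. An edgeR SE is the size of the log2 change divided by the square root of F. A limit of 3 reads equals 0.177 to 0.205 CPM in the count table and 0.118 to 0.178 CPM in the recovered reads, for counting error only. The biological coefficient of variation was 0.178 and 0.291. Replicates differed by more than sampling noise (chi-square per degree of freedom 16.5 to 28.2 in WT and KO). Alternatives used DESeq2 1.42.0, other scaling, filters and pseudocounts, a replicate block, and leaving out each library. Scripts were checked on simulated data.

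The libraries, gene lists and tests were chosen with earlier results of these data known. Named genes were Bcl11b and Foxp3, the 12 rises and 12 falls moving the same way in both tables and the 8 and 8 moving oppositely (ranked by the smaller absolute log2 change, mean of at least 5 CPM), genes called in the normalized table, up to 6 called members of a list, and the 6 largest rises and falls of the authors' deposited table with a mean of at least 50, of which the text describes a selection; some genes are not reported here. Predicted genes, antigen receptor segments and ribosomal protein genes were left out of these rankings. The text also describes genes that this rule did not name. Among them are Klrb1c and Nkg7 (NK list), Socs1 and Socs3 (interleukin-2 list), and Nrp1, Izumo1r and Entpd1 (Treg signature). Their values were known when they were picked. Positions are 1-based, from GENCODE M21 (mm10). A gene name was brought to its RefSeq symbol in 907 rows of the count table and 1621 of the normalized table. Some genes stand in several lists.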

Additional observations from a re-analysis of the deposited data

Results flagged for a closer look

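The KO minus WT change of 17 named genes differed between the count table and the normalized table by the edgeR interaction test, each with an adjusted p under 0.05. The difference (count minus normalized, log2) was positive for Sostdc1 at 6.66, Il21 at 4.08, Ciita at 3.99, Epb41l1 at 3.63, Tnfrsf21 at 3.30, H2-DMb1 at 3.28, Pigg at 2.90, Cd163 at 2.57, Eps8l1 at 2.40, Tbx21 at 2.15, Fndc3a at 1.63, Entpd1 at 1.22 and Irf8 at 1.18. It was negative for Ntn4 at -4.65, Slc25a33 at -1.26, Ecm1 at -1.26 and Garre1 at -0.94. The fitted value of Sostdc1 depends on the prior count, since its WT libraries of the count table were close to the limit of 3 reads. Each of the 17 was called again in 2 or 3 of 8 fits that left out a library, among them both fits without a WT library of the normalized table, and the direction was the same in all 8. The cause of these differences was not tested.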

How the results depend on the processing

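The count of genes called in the count table (1873) was 846 to 3087 when single libraries were left out, the high values being those without a KO EAE library, and 3121 with the WT and KO libraries alone. With 1 library left in a group, that library is assumed to vary like the others. Other scaling, no filter, a replicate block (1668) and DESeq2 (2477) kept it within 1.5 times. The count of the normalized table (1) was 1 to 552 without single libraries, 43 with a pseudocount of 8, 51 with a replicate block, 12 with edgeR and 379 with DESeq2 on recovered reads. Genes whose change differed between tables (151) numbered 4, 14, 6 and 6 without WT replicates 1 and 2 and KO replicates 1 and 2 of the count table, 484, 458, 6 and 1 without the same libraries of the normalized table, 5 with a replicate block within each table and 772 with DESeq2. Genes moving the same way in both tables (757) numbered 438, 467, 442 and 436 without the same 4 libraries of the count table and 150 with the call of the authors' deposited table in place of groups that do not overlap. They numbered 701 with a replicate block. Without single libraries of the normalized table they numbered 922 to 1039, and 649 without genes listed at 0. The last 3 of these choices for shared genes (the authors' call, the normalized libraries left out and the genes at 0) were made after seeing the data. Deviations of same-numbered WT and KO libraries correlated at r = 0.044 (count table) and -0.0126 (normalized table). With the KO EAE libraries of the count table, the correlation was -0.258 for WT and 0.198 for KO. Each group gives a single difference between replicates, so whether same-numbered libraries were paired cannot be told.

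Some changes that passed no test in their table turned sign when single libraries were left out. In the normalized table these were Foxp3 (-0.16 to 0.0062), Tbx21 (-0.086 to 0.51), Il21 (-0.24 to 0.65), Sostdc1 (-0.020 to 0.60), Nr4a2 (-0.80 to 0.12), Rel (-0.51 to 0.27), Irf8 (-0.30 to 0.11) and Cd22 (-0.34 to 0.43), and in the count table Eps8l1 (-0.28 to 0.20). The causes were not tested. Counts of members with groups apart in both tables grow when a library is left out, as fewer libraries need to be apart: over all genes from 1313 higher and 1266 lower to at most 2092 and 2017. For lower members they reached 12 for early receptor-induced genes, 12 for NF-kappaB genes, 9 for interferon response genes (without count-table WT replicate 2) and 10 for sterol synthesis genes, and for higher members 16 for cell cycle genes. These comparisons rest on 2 libraries a group, each with 14663542 reads or more. Whether depth or the number of libraries limits them more was not tested.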

Other observations

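Of 20 chemokine receptor genes tested in both tables, 3 were higher in both and none lower in both, against 10.9% and 10.5% of all genes. edgeR called 3 of 21 such genes higher in the count table and 1 lower (9.41% and 3.46% of all genes were). Of 15 CD28 family and checkpoint genes, 3 rose and 1 fell in the count table (against the same 9.41% and 3.46%). Higher in both tables were 2 and lower 3 (13.3% and 20%, against 10.9% and 10.5% of all genes). Of 13 Th2 genes tested in both, 3 were higher and 2 lower in both tables (23.1% and 15.4%), with medians of -0.11 and 0.047, each of the other sign in 1 alternative. Of 13 Th17 genes, 2 were higher and 3 lower in both (15.4% and 23.1%), with medians of 0.10 and -0.33. Their count-table median ran from -0.0016 without KO replicate 2 to 0.43 without WT replicate 2, and their normalized median from -0.52 without WT replicate 1 to -0.14 without WT replicate 2.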
